A study of Mus musculus with 20 samples.

Results

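The effect of the DKO genotype on gene expression was compared between the stromal cells of mouse skeletal muscle and its progenitors, gene by gene. For each gene the log2 difference between DKO and WT libraries was taken in 3 sorted cell populations, and the difference in SMP cells was subtracted from the mean of the differences in FAP and Misc cells. A positive value means that the gene was raised more, or lowered less, by the DKO genotype in FAP and Misc than in SMP. All 20 libraries of the series entered, in 6 groups by population and genotype, with 4 libraries a group in FAP and in Misc and 2 a group in SMP. The comparison was repeated without the second SMP DKO library. Of 24393 genes in the table, 14179 had enough counts to be tested.

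The cells were taken from 3 hindlimb muscles (quadriceps, gastrocnemius and tibialis anterior) of DKO and WT mice; the labels name no treatment and no age. FAP commonly stands for fibro/adipogenic progenitors and SMP for skeletal muscle progenitors; the labels do not define Misc, and the series' design text lists a population called FB in its place. The labels also do not spell out DKO. The double knockout is read here, as an assumption, as the loss of desmin (Des) and nesprin 1 (Syne1), which link the contractile apparatus to the nucleus. As background, fibro/adipogenic progenitors lie between muscle fibres and secrete collagens and other matrix proteins, and they expand in fibrotic muscle. Muscle progenitors rest under the basement membrane of the fibre, held quiescent in part by Notch signalling, and on injury switch on Myod1, divide and fuse into fibres. Nothing in the labels says whether libraries of a group came from different animals, so p-values measure the spread between these libraries.

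Library totals ran from 5.83 to 17.73 M counts, and both SMP DKO libraries (6.12 and 5.83 M) lay below both SMP WT libraries (10.66 and 9.67 M). Des, in CPM (counts scaled to a common library size), was 3.43 to 5.33 in FAP libraries of DKO mice and 14.2 to 18.3 in those of WT mice. In Misc the ranges were 1.37 to 2.27 and 2.16 to 4.74, and in SMP the values were 75.4 and 54.2 against 171 and 184. Syne1 was 35.9 to 37.0 CPM in SMP DKO against 69.2 and 79.5 in SMP WT, and 59.2 to 75.5 in Misc DKO against 85.5 to 129.8 in Misc WT, while the FAP groups overlapped. Pax7, the marker of quiescent progenitors, was 125 and 100.2 CPM in SMP DKO and 262 and 271 in SMP WT, and at most 2.63 CPM in any FAP or Misc library. Pdgfra, a fibro/adipogenic marker, was 935 to 1343 CPM in FAP, 291 to 485 in Misc, and 9.32 to 10.4 in the first SMP DKO and both SMP WT libraries. The transcripts of the sexes were uneven: Xist was 374 to 845 CPM with Ddx3y at most 0.313 CPM in 8 of the 10 DKO libraries, FAP DKO and Misc DKO replicates 3 held Ddx3y (144 and 89.6 CPM) with Xist at most 0.387 CPM, and every WT library held both. The part of these differences in the results was not tested.

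The second SMP DKO library stood apart from the other 3 SMP libraries. It held Pdgfra at 112 CPM and 13 of 14 fibro/adipogenic markers above all other SMP libraries, with a summed level of 11859.6 CPM against 2571 in the first SMP DKO library and 3135 and 3468 in SMP WT. Of 16 immune markers 14 were highest there (summed 908 CPM against 24.0 to 42.8), as were 13 of 14 endothelial markers (781 against 138 to 355). Its summed level of 22 myogenic markers was 4704 CPM against 5278 in the first SMP DKO library and 6380.4 and 6507 in SMP WT. Mature fibre genes were raised in both SMP DKO libraries, to 446 and 843 CPM against 179.6 and 229. Results are given with and without the second SMP DKO library where it changed them or where a gene or list is described in full. Without it, SMP DKO is a single library whose spread is assumed to be that of the other groups.

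**Figure D1:**
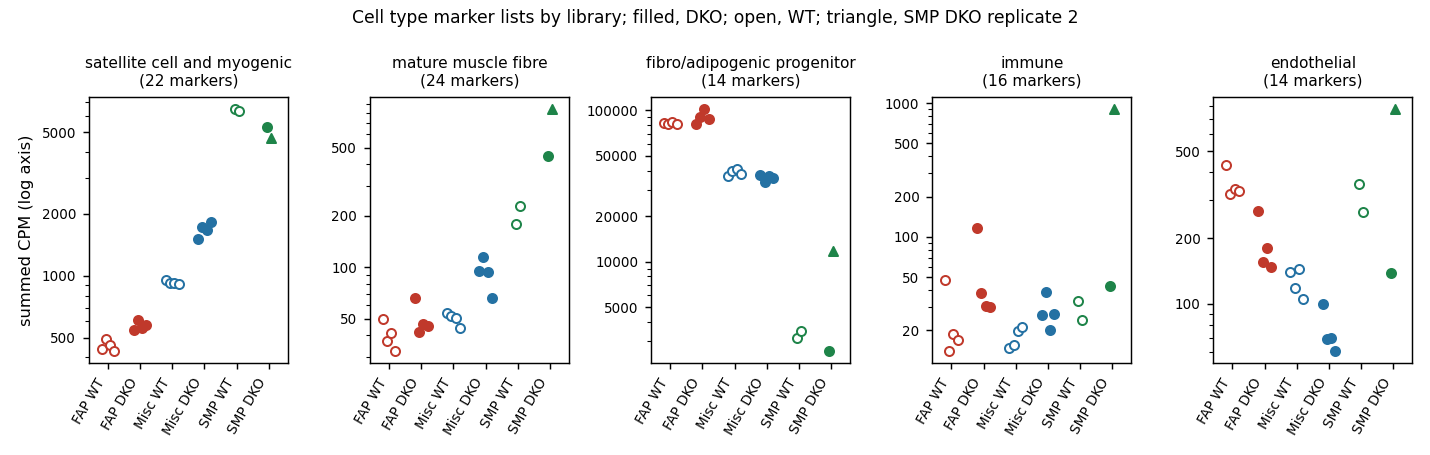
Summed CPM of 5 cell type marker lists in each of the 20 libraries (log axis; filled points DKO, open points WT, triangle the second SMP DKO library). That library reached 11859.6 CPM for fibro/adipogenic, 908 for immune and 781 for endothelial markers, above the other 3 SMP libraries in each, while myogenic markers were highest in all 4 SMP libraries.

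The DKO effect differed between stroma and progenitors for 1617 of 14179 genes, 11.4% of those tested (edgeR quasi-likelihood test, Benjamini-Hochberg adjusted p under 0.05). Of these, 824 (5.81%) were higher in FAP and Misc than in SMP and 793 (5.59%) were lower, and 756 (5.33%) differed by at least 2-fold. The repeat without the second SMP DKO library called 1050 of 14587 genes (7.20%), 676 higher (4.63%) and 374 lower (2.56%). In all 788 genes (5.56%) were called in both analyses with the same sign. The higher calls shared 449 genes between the analyses, 54.5% of those with all libraries and 66.4% of those without. The lower calls shared 339 genes, 42.7% and 90.6%, and 10 genes called lower with all libraries had the opposite sign without that library. Among all genes tested the median difference was −0.01 with all libraries. Against SMP, FAP alone differed for 1465 genes (10.3%) and Misc alone for 1268 (8.94%), and 733 were called with the same sign in both. DKO and WT differed for 1520 genes in FAP (10.7%), 2652 in Misc (18.7%) and 3257 in SMP (23.0%), which is the background for every rise or fall named below. The FAP count fell to 932 without the second FAP DKO library and to 997 without the first FAP WT library. The SMP count fell by a factor of over 1.5 without the first SMP WT library. The counts that follow are again of genes whose DKO effect differed between stroma and SMP. Without the first SMP WT library the count was 898, with 480 higher and 418 lower, and without the second SMP WT library 506 were lower.

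For the 824 higher genes the median log2 DKO effect was 0.12 in FAP, 0.10 in Misc and −0.79 in SMP, and in 668 of them the SMP effect was larger in size than the mean of FAP and Misc. For the 793 lower genes the medians were −0.12, −0.05 and 0.86, and the SMP effect was the larger in 679. The SMP effect was the larger in 81.1% and 85.6% of these genes, against 70.5% of all genes tested, whose median size of effect was 0.40 in SMP and 0.20 for the mean of FAP and Misc. These genes were chosen by a contrast that contains the SMP effect, so the shares are a description. The SMP effect also came from 2 libraries a group. The stromal value averages FAP and Misc, with 4 libraries a group and effects that correlated at 0.48 over genes. Such averaging shrinks sizes, so the sizes over all genes are not on an equal footing. Whether the DKO effect was stronger in SMP was not tested. Effects that passed the test in all 3 populations with opposite direction were few: 34 genes rose in FAP and Misc and fell in SMP, and 15 fell in FAP and Misc and rose in SMP. FAP and Misc differed from each other in 98 of the 824 and 44 of the 793 genes, against 396 of all genes tested (2.79%). The WT levels are also part of the contrast that chose these genes, so the shares that follow are a description too. Of the lower genes, 484 (61.0%) had their highest WT level in FAP, compared with 30.7% of all genes tested. Of the higher genes, 499 (60.6%) had their highest WT level in SMP, compared with 41.9% of all genes, and 35.9% of the higher calls made without the second SMP DKO library did.

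**Figure D2:**
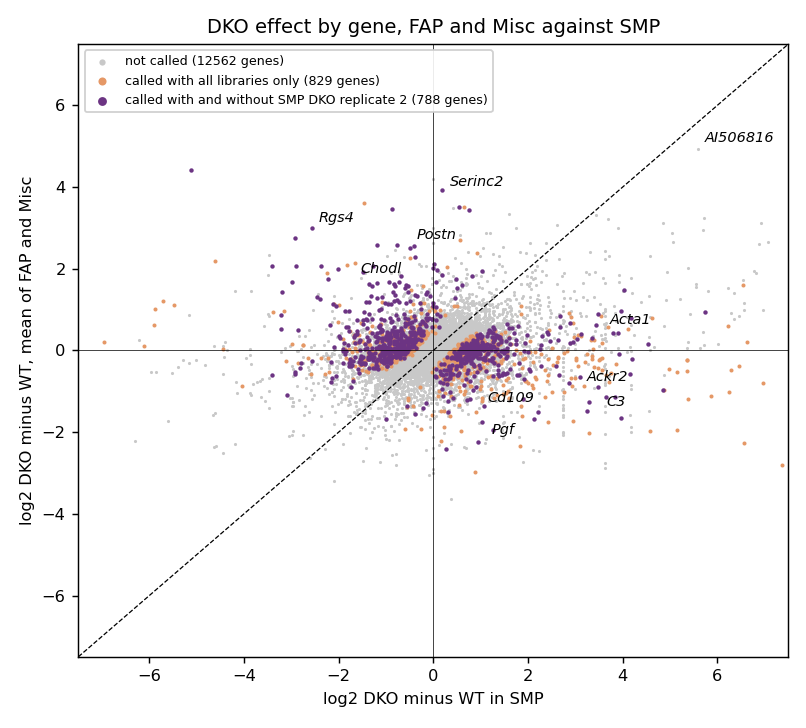
Log2 DKO minus WT difference in SMP (x axis) against the mean of the differences in FAP and Misc (y axis) for the 14179 genes tested, 26 of which lie outside the axes; the dashed line marks equal effects. The 788 genes called in both analyses (purple) and the 829 called with all libraries only (orange) spread mainly along the x axis, as the medians of −0.79 and 0.86 in SMP show.

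Rgs4, which shortens signalling by G protein-coupled receptors, had the largest positive difference among the named genes. All 4 FAP DKO libraries lay between 11.9 and 13.9 CPM, against 4.32, 1.42, 3.42 and 1.81 in FAP WT. In Misc it was 38.7, 62.0, 40.3 and 58.8 CPM in DKO and 4.01, 5.44, 2.28 and 2.16 in WT. In SMP it went the other way, with 14.6 and 29.3 CPM in DKO and 138 and 121 in WT. No group overlapped its counterpart in any population. The log2 effect was 2.18 in FAP, 3.79 in Misc and −2.57 in SMP, a difference of 5.55 ± 0.45 (SE; edgeR adjusted p = 8.8e-07) with all libraries and 6.14 ± 0.53 (adjusted p = 2.0e-06) without the second SMP DKO library. The gene lies at chr1:169741477-169747642 (GRCm38.p6, the RefSeq assembly corresponding to mm10).

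Chodl, a membrane lectin known from quiescent muscle progenitors, was 1006, 1030.0, 1108 and 1234 CPM in Misc DKO and 407, 329, 309 and 372 in Misc WT. In SMP it was 453 and 309 CPM in DKO and 998 and 945 in WT. Misc DKO libraries thus reached the level of SMP WT, while SMP DKO fell to that of Misc WT. In FAP it was far lower, at 11.2 to 22.2 CPM in DKO and 4.09 to 9.03 in WT, again without overlap. The difference was 2.98 ± 0.32 (SE; edgeR adjusted p = 5.7e-06), and 2.74 ± 0.37 without the second SMP DKO library (adjusted p = 1.1e-04).

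Frem1, Col22a1 and Crispld1 encode secreted or matrix proteins and also rose in both stromal populations and fell in SMP. Frem1, a basement membrane adaptor, was 21.2 to 33.8 CPM in FAP DKO against 8.71 to 10.9 in WT, 132 to 153 in Misc DKO against 56.8 to 68.2, and 99.4 and 80.2 in SMP DKO against 232 and 215. Its groups did not overlap, and the difference was 2.65 ± 0.19 (SE; edgeR adjusted p = 3.9e-09). Col22a1, the collagen of the myotendinous junction, was 747 to 956 CPM in Misc DKO against 169 to 236 in WT, and 148 and 177 in SMP DKO against 426 and 477 (difference 3.39 ± 0.45, adjusted p = 1.6e-04). In FAP it was low and the groups overlapped (5.52 to 14.6 against 0.952 to 5.57 CPM). Crispld1, a secreted protein, showed 143 to 231 CPM in Misc DKO against 78.6 to 90.2, and 15.0 and 34.4 in SMP DKO against 72.5 and 97.6 (difference 2.76 ± 0.38, adjusted p = 2.1e-04). Mgam, Add2 and Creg2 followed the same directions at lower levels, with differences of 3.35, 2.88 and 2.85, although the fall of Add2 in SMP did not pass without the second SMP DKO library (log2 −1.18, adjusted p = 0.076). All 7 of these genes besides Rgs4 were called again without the second SMP DKO library, with differences of 2.51 to 4.14.

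A further group rose in stroma while SMP did not pass the test with all libraries. Postn, periostin, a matricellular protein of fibrotic tissue, was 1837, 1721, 876 and 1945 CPM in FAP DKO and 512, 517, 538 and 490.1 in FAP WT. The 4 Misc DKO libraries held 4377, 6294, 5859.5 and 7075 CPM, and Misc WT 675, 539.9, 428 and 599. In SMP it was 576 and 1065 CPM in DKO and 1015 and 1299 in WT, and these overlapped. The difference was 3.01 ± 0.37 (SE; edgeR adjusted p = 3.0e-05), with 3.53 ± 0.44 without the second SMP DKO library. The rise was larger in Misc (log2 3.40) than in FAP (1.63), and this contrast was itself called (FAP minus Misc −1.76).

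Thbs4, thrombospondin 4, was 2565 to 4178 CPM in FAP DKO against 272 to 368 in WT, and 28368 to 39112 in Misc DKO against 15047 to 17292. In SMP it was 1963 and 3212 CPM in DKO and 2726 and 2367 in WT. Both stromal populations separated by genotype and SMP did not, with a difference of 2.09 ± 0.27 (SE; edgeR adjusted p = 1.4e-05). Its order of effects was the reverse of Postn, with log2 3.26 in FAP and 0.97 in Misc. Serinc2, a membrane protein, was 1.41 to 1.68 CPM in FAP DKO against 0.167 to 0.393 in WT, and 3.11 to 4.67 in Misc DKO against at most 0.158 in WT. It was 24.8 and 21.5 CPM in SMP DKO and 16.9 and 23.6 in SMP WT, so that the SMP level stayed above both stromal populations (difference 3.72 ± 0.37, adjusted p = 7.0e-07). F2rl1, protease-activated receptor 2, was 12.8 to 16.2 CPM in FAP DKO against 1.42 to 2.51 in WT, 10.8 to 15.9 in Misc DKO against 0.681 to 1.26, and 3.69 and 4.89 in SMP DKO against 3.40 and 1.58 (difference 2.66 ± 0.39, adjusted p = 9.0e-05). Aspn, asporin, a small leucine-rich proteoglycan, and Frzb, a secreted Wnt antagonist, differed by 1.62 ± 0.34 and 3.34 ± 0.69 (adjusted p = 0.0043 and 0.0028). For both the rise lay in Misc (log2 2.86 and 4.31), while FAP did not pass the test (0.49 and 0.87). Without the second SMP DKO library the log2 effect of Aspn in SMP went from 0.06 to −0.80, and its difference from 1.62 to 2.47.

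**Figure D3:**
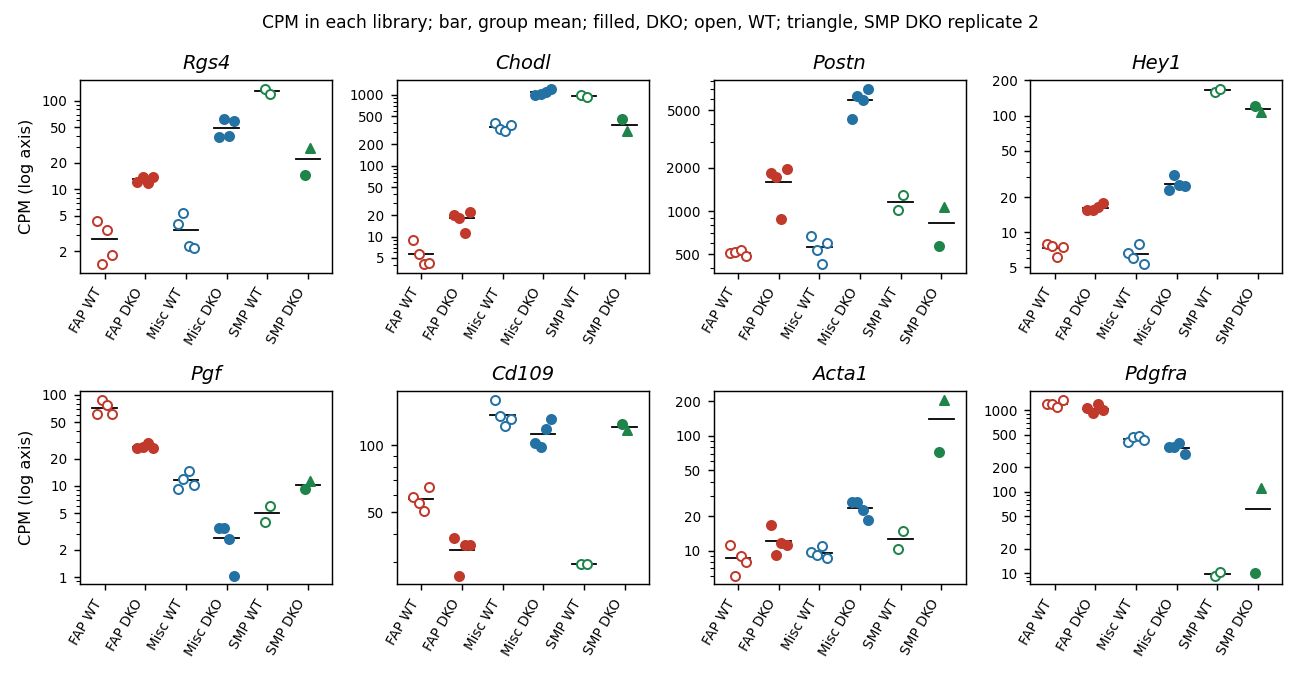
CPM of 8 genes in every library (log axes that differ between panels; bar, group mean; filled points DKO, open points WT, triangle the second SMP DKO library). Rgs4, Chodl and Hey1 were higher in DKO in FAP and Misc and lower in SMP, Pgf and Cd109 were lower in DKO in FAP and higher in SMP, and Pdgfra in SMP differed only in the second SMP DKO library, at 112 CPM against 9.32 to 10.4.

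In the opposite direction, Pgf, placental growth factor, was 25.8, 26.9, 29.4 and 26.2 CPM in FAP DKO and 62.0, 88.1, 77.3 and 61.7 in FAP WT. In Misc it was 3.48, 3.47, 2.64 and 1.04 CPM in DKO and 9.31, 11.9, 14.7 and 10.3 in WT. SMP showed 9.36 and 11.3 CPM in DKO and 4.05 and 6.05 in WT. With all libraries the fall in both stromal populations and the rise in SMP passed the test, without overlap of any pair of groups. The rise in SMP did not pass without the second SMP DKO library (log2 0.88, adjusted p = 0.1). The difference was −2.79 ± 0.33 (SE; edgeR adjusted p = 8.7e-06) with all libraries and −2.64 ± 0.40 without the second SMP DKO library (adjusted p = 1.4e-04).

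Timp3, Adamtsl4 and Adamts14 also fell in FAP and Misc and rose in SMP. Timp3, an inhibitor of metalloproteases, was 686 to 955 CPM in FAP DKO against 1041 to 1127 in WT, 748 to 882 in Misc DKO against 1222 to 1339.9, and 740.2 and 873 in SMP DKO against 439.8 and 414. The 3 populations thus lay between 686 and 955 CPM in DKO, against 414 to 1339.9 CPM in WT. Adamtsl4, a fibrillin-binding protein, was 88.2 to 115 CPM in FAP DKO against 139 to 166 in WT and 56.5 and 54.4 in SMP DKO against 19.1 and 17.0. Adamts14, which trims procollagen, was 20.4 to 25.5 CPM in FAP DKO against 31.8 to 38.9 and 28.6 and 27.4 in SMP DKO against 10.3 and 13.1. The differences were −1.44 ± 0.16 for Timp3, −2.08 ± 0.17 for Adamtsl4 and −1.88 ± 0.22 for Adamts14 (SE; edgeR adjusted p = 3.3e-06, 3.8e-08 and 5.7e-06). Camk1d, a calcium-dependent kinase, Mcm6, a subunit of the replicative helicase, G6pdx, the first enzyme of the pentose phosphate pathway, and Creb3l1, a factor of the secretory pathway, had differences of −2.11, −1.79, −1.48 and −1.26. Pgf and these 7 genes were called again without the second SMP DKO library, with differences of −2.64 to −0.94, although the rise of Creb3l1 in SMP did not pass there (log2 0.39, adjusted p = 0.13).

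Of the 15 named genes with the largest negative differences, 14 rose in SMP with all libraries, while 4 fell in FAP and 4 in Misc. Among all genes tested, 23.0% differed in either direction in SMP, 10.7% in FAP and 18.7% in Misc. The 15 genes were chosen by the size of a difference that contains the SMP effect, so these counts are a description. Without the second SMP DKO library the rises of Col6a6, Pgf and Pcolce2 in SMP did not pass. St6galnac2, a sialyltransferase, was the exception with all libraries: it was 3.13 to 4.94 CPM in FAP DKO against 12.4 ± 0.976 (mean ± SD, n = 4) in WT, 0.518 to 2.39 in Misc DKO against 11.4 to 13.1, and 1.58 and 5.33 in SMP DKO against 2.19 and 1.31. Its groups overlapped in SMP, where the log2 effect was 0.94 (adjusted p = 0.13), or −0.17 without the second SMP DKO library. The difference was −3.18 ± 0.49 (SE; edgeR adjusted p = 1.6e-04), and −2.07 ± 0.61 without that library (adjusted p = 0.035). Col6a6, a chain of collagen VI, fell in Misc (47.7 to 108 against 199.7 to 282 CPM) and was 9.88 and 35.1 CPM in SMP DKO against 7.21 and 4.65. Its rise in SMP did not pass without the second SMP DKO library (log2 0.72, adjusted p = 0.33), and its difference went from −3.08 to −1.90.

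In others the rise in SMP passed both with and without that library. Cd109, a surface protein that binds TGF-beta, was 125 and 117 CPM in SMP DKO and 29.3 and 29.2 in SMP WT. It was lower in all FAP DKO libraries (26.0 to 38.4 CPM against 50.7 to 64.9), while in Misc the groups overlapped (98.4 to 131 against 122 to 160.2). The difference was −2.56 ± 0.19 (SE; edgeR adjusted p = 5.5e-09) and −2.60 ± 0.21 without the second SMP DKO library, as large as with it. Ereg, the EGF receptor ligand epiregulin, was 63.6 and 71.3 CPM in SMP DKO and 6.32 and 3.33 in SMP WT, and 3.34 to 15.3 CPM in all FAP and Misc libraries (difference −3.38 ± 0.51, adjusted p = 4.1e-04). Ackr2, a scavenger of chemokines, was 3.29 and 4.15 CPM in SMP DKO against 0.324 and 0.526, and 20.5 to 34.5 in FAP DKO against 51.5 to 53.5 in FAP WT (difference −3.75 ± 0.58, adjusted p = 1.6e-04). S100a4, a calcium-binding protein, was 65.2 and 94.4 CPM in SMP DKO and 7.70 and 7.80 in SMP WT, whereas FAP and Misc overlapped (difference −3.06 ± 0.42, adjusted p = 2.1e-04). Tnfaip2, an NF-kappaB target, rose in SMP (72.3 and 111 against 9.97 and 6.93 CPM) and in Misc (45.9 to 65.4 against 21.3 to 33.3), with a difference of −2.81 ± 0.29 (adjusted p = 3.3e-06). Each of these 5 genes was called without the second SMP DKO library too.

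Other genes raised in SMP were highest in the library that stood apart, and their size depended on it. Ecm1, an extracellular matrix glycoprotein, was 30.6 and 105 CPM in SMP DKO against 10.3 and 7.98 in WT. Pcolce2, an enhancer of procollagen processing, was 10.3 and 45.3 CPM against 8.35 and 6.22. Lgals3, galectin 3, was 18.8 and 44.6 CPM against 4.70 and 2.54. In each the second SMP DKO library was more than 2-fold above the first. The differences of −2.71, −2.62 and −2.70 became −1.55, −1.19 and −1.95 without the second SMP DKO library and were called there as well (edgeR adjusted p = 4.7e-04, 0.017 and 0.0011). The rise of Pcolce2 in SMP itself did not pass without that library (log2 0.48, adjusted p = 0.28). Pcolce2 and Ecm1 were expressed in FAP at 238 to 378 and 499 to 839.8 CPM.

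Of 23 tested members of a list of mature fibre genes, 16 rose in SMP and none fell with all libraries, where 23.0% of all genes differed in either direction. Without the second SMP DKO library the median log2 effect of the list in SMP was 1.84, against −0.06 over all genes tested. In the comparison with stroma 9 of the 23 were called lower and none higher, against 5.59% and 5.81% of all genes tested, with a median difference of −1.82 against −0.01 over all genes tested. The median log2 DKO effect of the list was 0.54 in FAP, 0.95 in Misc and 2.65 in SMP. Acta1, skeletal actin, was 72.6 and 206 CPM in SMP DKO and 10.3 and 14.8 in SMP WT. In Misc it was 18.4 to 26.5 CPM in DKO libraries against 8.63 to 10.9, and it overlapped in FAP (9.24 to 16.8 against 6.08 to 11.3). Its difference was −2.58 ± 0.43 (SE; edgeR adjusted p = 9.8e-04), and −1.63 ± 0.31 without the second SMP DKO library. Ttn, titin, was instead highest in the first SMP DKO library, with 47.2 and 21.2 CPM in SMP DKO and 6.08 and 6.93 in SMP WT (difference −1.94 ± 0.38, and −2.40 ± 0.36 without the second library). Myh4, the myosin of fast fibres, was 25.3 and 80.2 CPM against 4.86 and 8.77 (difference −2.75 ± 0.56, adjusted p = 0.004, and −1.69 ± 0.47 without the second SMP DKO library, adjusted p = 0.029), and Mylpf and Tnni2, fast light chain and fast troponin I, differed by −3.39 ± 0.52 and −3.49 ± 0.64, or −2.62 ± 0.54 and −2.33 ± 0.63 without that library. Without the second SMP DKO library 6 of the 23 were called lower and none higher, against 2.56% and 4.63% of all genes, with a median of −1.02. The actin and myosin genes have near-identical relatives, so reads can be split between copies. In these pooled cells, more cells of a kind and more RNA per cell cannot be told apart.

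The 250 bases before the RefSeq transcription start (GRCm38.p6) are shown for the gene with the largest positive difference and for Myh4 and Acta1. Among the 15 named genes with the largest negative differences, Myh4 and Acta1 are the fibre genes whose promoters are in the RefSeq table. Capitals mark matches on either strand to any of 5 motifs: CAGCTG (an E-box bound by MyoD), TGGGAA (RBPJ, the Notch effector), TGACTCA (AP-1), GGAATG (TEAD) and CAGACA (Smad). Rgs4 at chr1:169747643-169747892 (minus strand) held none of them. Myh4 at chr11:67237562-67237811 (plus strand) held the TEAD motif on the other strand and then the E-box. Acta1 at chr8:123894776-123895025 (minus strand) held the Smad motif overlapping the E-box, then the RBPJ motif and then the TEAD motif on the other strand.
Rgs4: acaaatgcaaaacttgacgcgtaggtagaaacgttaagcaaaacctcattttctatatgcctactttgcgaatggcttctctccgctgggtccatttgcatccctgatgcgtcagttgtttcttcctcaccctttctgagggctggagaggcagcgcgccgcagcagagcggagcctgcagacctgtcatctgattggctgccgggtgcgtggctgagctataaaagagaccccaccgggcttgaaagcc
Myh4: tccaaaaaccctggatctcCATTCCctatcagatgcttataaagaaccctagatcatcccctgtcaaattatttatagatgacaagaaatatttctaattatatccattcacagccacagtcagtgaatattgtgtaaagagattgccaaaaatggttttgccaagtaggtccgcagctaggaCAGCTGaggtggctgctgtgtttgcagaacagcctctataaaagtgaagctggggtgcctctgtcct
Acta1: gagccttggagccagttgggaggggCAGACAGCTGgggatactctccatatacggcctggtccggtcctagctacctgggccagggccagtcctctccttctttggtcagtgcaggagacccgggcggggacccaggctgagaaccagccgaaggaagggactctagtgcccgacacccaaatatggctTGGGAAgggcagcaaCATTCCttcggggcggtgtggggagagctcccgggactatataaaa
Among the 15 genes with the largest negative differences, 11 had a promoter in the table, and the E-box was found in 4 of these (36.4%), the RBPJ motif in 5 (45.5%), the TEAD motif in 2 (18.2%), the Smad motif in 4 (36.4%) and the AP-1 motif in 1 (9.09%). In all 27025 genes of the table the shares were 14.7, 24.1, 14.4, 19.3 and 5.16%. Among the 15 with the largest positive differences, 10 had a promoter, and the E-box and the RBPJ motif were each found in 3. A match is a description of letters and not a binding site.

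Hey1 and Heyl, targets of Notch, rose in both stromal populations and fell in progenitors with all libraries. Hey1, a transcriptional repressor induced by Notch, was 15.5, 15.4, 16.4 and 17.8 CPM in FAP DKO and 8.01, 7.60, 6.18 and 7.43 in FAP WT. In Misc it was 22.9, 30.9, 25.4 and 24.7 CPM in DKO and 6.60, 6.07, 7.92 and 5.34 in WT, and in SMP it was 121 and 107 in DKO and 159 and 170.4 in WT. No pair of groups overlapped, and the difference was 2.10 ± 0.17 (SE; edgeR adjusted p = 2.0e-08). Its fall in SMP did not pass without the second SMP DKO library (log2 −0.45, adjusted p = 0.081). Heyl, its relative, was 64.5 to 103 CPM in Misc DKO against 25.5 to 32.4 in WT and 167 and 147 in SMP DKO against 307 and 301 (difference 2.10 ± 0.25, adjusted p = 1.2e-05), with a slight overlap in FAP (22.2 to 34.0 against 12.6 to 22.8). Hes1 fell in SMP (108 and 106 against 184 and 173 CPM) and passed in neither stromal population (difference 0.84 ± 0.13, adjusted p = 1.8e-04). Of the 23 genes of the Notch list, 5 were called higher and 1 lower, against 5.81% and 5.59% of all genes tested, with a median of 0.12. The single lower call is near the share over all genes. Without the second SMP DKO library 3 were called higher, namely Hes1, Hey1 and Heyl, and none lower, and without the first SMP WT library also 3 and none. Jag1, a ligand, rose in Misc (54.2 ± 2.87 against 24.9 ± 3.76 CPM, mean ± SD, n = 4), and its difference of 0.55 ± 0.14 (adjusted p = 0.016) was not called without the second SMP DKO library (0.51, adjusted p = 0.079) or the first SMP WT library (0.45, adjusted p = 0.12).

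Of the 36 lists, tendon genes had the largest share of higher calls. Of 13 members tested, 7 were called higher and 1 lower, against 5.81% and 5.59% of all genes tested, with a median of 1.14. In the repeat without the second SMP DKO library 9 were higher and none lower, against 4.63% and 2.56%, with a median of 1.34. The median DKO effect was 0.19 in FAP, −0.53 in Misc and −0.92 in SMP, so the positive difference came with a fall in SMP. Scx, scleraxis, the transcription factor of tendon cells, was 93.0 to 143 CPM in Misc DKO against 67.7 to 94.1 in WT, a slight overlap. In SMP it was 9.62 and 9.63 CPM in DKO against 19.9 and 19.1 (difference 2.18 ± 0.33, edgeR adjusted p = 1.7e-04). The difference also includes FAP, where Scx was low. In FAP DKO it was 4.70 CPM in the second library and 1.77 to 2.06 in the others. Tnmd, tenomodulin, was 92.1 and 160.5 CPM in SMP DKO against 209 and 268, with overlap in FAP and Misc. Its difference of 1.09 ± 0.32 (adjusted p = 0.034) was not called without the fourth Misc DKO (1.06, adjusted p = 0.05), the first SMP DKO (0.76, 0.17) or the second SMP WT library (0.92, 0.14). Col11a1, a fibrillar collagen, fell in both Misc (775 to 979 against 1092 to 1364 CPM) and SMP (81.7 and 104 against 242 and 289.7), by more in SMP (difference 1.31 ± 0.24, adjusted p = 9.8e-04). Egr1 and Egr2 belong to this list and to the next one. The list summed to 61537 to 84988 CPM in Misc libraries of DKO mice, 66402 to 70427 in those of WT mice and 6283 to 15093 in SMP.

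A list of immediate early and heat shock genes was examined because such genes respond to tissue dissociation. Of 20 tested, 8 were called higher and none lower, against 5.81% and 5.59% of all genes tested, with a median of 0.44. In the repeat 11 were higher and none lower, against 4.63% and 2.56%, with a median of 0.70. Fos was 1132 and 1469.8 CPM in SMP DKO against 3988 and 3772 in WT, and fell in FAP (2348 to 2758 against 3410.0 to 4058) and Misc (3291 to 3961 against 5063 to 5515) as well, by less (difference 1.02 ± 0.17, edgeR adjusted p = 4.3e-04). Egr1 was 2993 and 3372 CPM in SMP DKO against 9348 and 7965, and 4501 to 5408 in FAP DKO against 5662 to 6826 (difference 1.14 ± 0.17, adjusted p = 1.2e-04). Egr2 fell in SMP (225 and 263 against 503 and 509 CPM) and did not pass in FAP or Misc, whose groups overlapped (difference 1.18 ± 0.15, adjusted p = 1.6e-05). Hspa1b, a heat shock protein with a near-identical copy, rose in FAP and Misc and fell in SMP (difference 1.21 ± 0.22, adjusted p = 8.4e-04), though its fall in SMP was at adjusted p = 0.05 without the second SMP DKO library. Without the first SMP DKO library 1 member of this list was called lower and 7 higher.

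The direction of the secreted matrix lists depended on which SMP DKO library was used. Their counts stand against 5.81% of all genes tested called higher and 5.59% lower with all libraries, and 4.63% and 2.56% without the second SMP DKO library. Of 12 small leucine-rich proteoglycans, which bind collagen fibrils, 1 (Aspn) was called higher and none lower with all libraries, which is near the share over all genes, with a median of −0.03. Without the second SMP DKO library 6 were called higher (Aspn, Bgn, Dcn, Fmod, Kera and Lum) and none lower, with a median of 0.74. Without the first SMP DKO library 1 was higher and 4 were lower, with a median of −0.38. The list of 27 elastic fibre proteins and glycoproteins had 6 higher and 5 lower with all libraries, 10 and 3 without the second SMP DKO library, 4 and 11 without the first, and 4 and 3 without either SMP WT library. The 18 matricellular proteins had 4 higher (Cyr61, Postn, Thbs4 and Tnc) and 3 lower, 4 and none without the second SMP DKO library, and 3 and 6 without the first. Without the second SMP WT library they had 2 higher and 1 lower. The 23 basement membrane genes had 4 lower (Col4a5, Col4a6, Hspg2 and Nid2) and none higher, then none in either direction without the second SMP DKO library, 8 lower without the first and 1 lower without the second SMP WT library. The 24 matrix proteases and inhibitors had 2 higher (Mmp2 and Timp1) and 4 lower (Adam12, Mmp9, Timp2 and Timp3), 3 and 1 without the second SMP DKO library, and 2 and 1 without the first SMP WT library.

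Some members of the glycoprotein and protease lists kept their call in both analyses. Fn1, fibronectin, was 5476 to 7399.9 CPM in Misc DKO against 2384 to 2819 in WT, overlapped in FAP, and was 1074 and 1723 in SMP DKO against 1996 and 2008 (difference 1.20 ± 0.21, edgeR adjusted p = 7.2e-04, and 1.59 ± 0.21 without the second SMP DKO library). Fbn2, fibrillin 2, rose in Misc (87.5 to 109 against 46.1 to 74.7 CPM) and FAP (5.42 to 15.7 against 3.06 to 5.18) and fell in SMP (13.6 and 14.4 against 32.4 and 28.9), with a difference of 2.14 ± 0.36 (adjusted p = 9.8e-04). Its fall in SMP did not pass without the second SMP DKO library (log2 −1.19, adjusted p = 0.067). Mmp2, a gelatinase, was 299 and 749.8 CPM in SMP DKO against 921 and 842 in WT, and rose in Misc (4217 to 5055 against 2565 to 2913). Its difference went from 1.23 ± 0.26 to 2.05 ± 0.18 without the second SMP DKO library. Timp1, a protease inhibitor, rose in all 3 populations with all libraries, from 22.2 to 28.9 CPM to 86.7 to 120.2 in FAP, from 87.9 to 90.0 to 206 to 278 in Misc and from 43.5 and 44.3 to 54.7 and 68.2 in SMP (difference 1.26 ± 0.19, adjusted p = 8.6e-05). The rise of Timp1 in SMP did not pass without the second SMP DKO library (log2 0.31, adjusted p = 0.3).

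**Figure D4:**
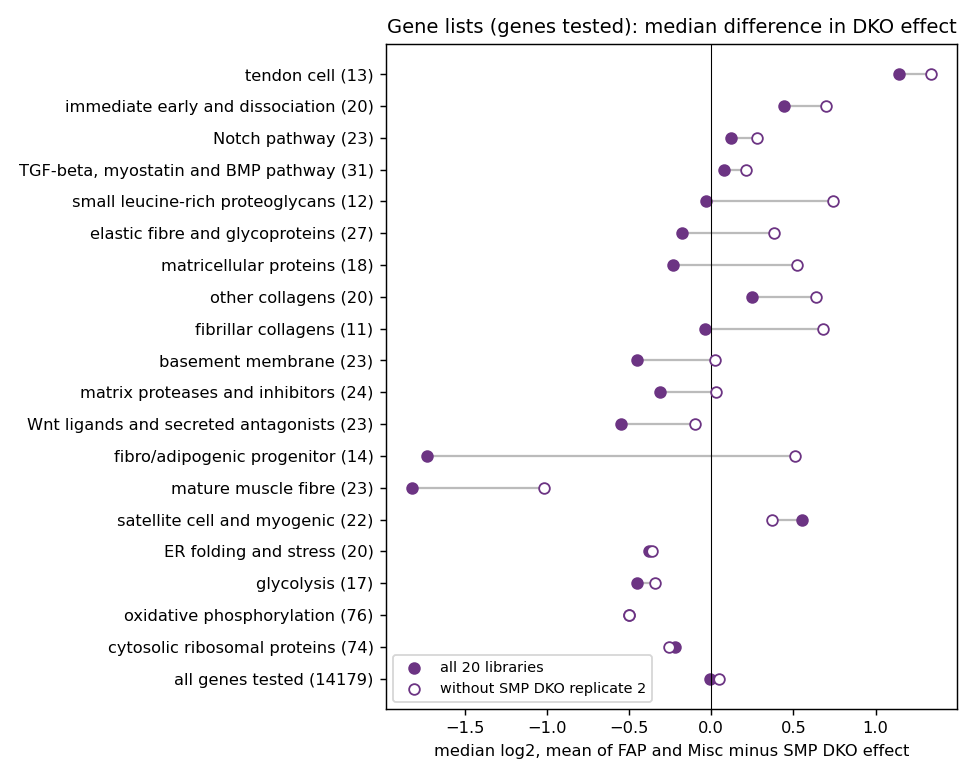
Median log2 difference between the stromal mean and SMP in DKO effect for 19 gene lists and all genes tested (number tested in brackets), with all 20 libraries (filled) and without the second SMP DKO library (open). The fibro/adipogenic list moved from −1.73 to 0.51 and the proteoglycans from −0.03 to 0.74, while the tendon list (1.14 and 1.34) and the oxidative phosphorylation list (−0.50 in both) stayed on their side of 0.

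The main fibrillar collagens did not pass the test with all libraries. Col1a1 was 6328 to 8903 CPM in FAP DKO against 7963 to 10351 in WT, 18834 to 30513 in Misc DKO against 35085 to 46014, and 1156 and 2639 in SMP DKO against 2329.5 and 2663. It fell in Misc (log2 −0.68) and did not pass in FAP or SMP, and the difference was −0.04 ± 0.31 (SE; edgeR adjusted p = 0.96), or 0.68 ± 0.27 (adjusted p = 0.13) without the second SMP DKO library. Col1a2 gave 0.03 ± 0.31 (adjusted p = 0.97), and 0.87 ± 0.24 (adjusted p = 0.028) without that library. Col3a1 gave −0.41 ± 0.25 (adjusted p = 0.3), −0.00 ± 0.24 without the second SMP DKO library, and −0.71 (adjusted p = 0.045) without the first. All 3 genes were lower in the first SMP DKO library than in the second. Of 11 fibrillar collagens 2 were called higher (Col11a1 and Col24a1) and 1 lower (Col5a3), against 5.81% and 5.59% of all genes tested. Without the first SMP DKO library 2 were higher and 3 lower, and without the first Misc DKO library 5 were called in all. Col24a1 was not called without the second SMP DKO library (0.97, adjusted p = 0.16). With same-numbered FAP and Misc libraries treated as pairs, 5 of the 11 were called, while the count over all genes tested rose from 1617 to 1945.

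Some of the largest negative differences were tied to the second SMP DKO library. The list counts below stand against 5.81% of all genes tested called higher and 5.59% lower with all libraries. The 1 higher fibro/adipogenic call and the 1 lower immune call are near those shares. C3, complement component 3, was 7.64 and 356 CPM in SMP DKO and 17.6 and 11.2 in SMP WT. Col14a1, a collagen of fibro/adipogenic cells, was 3.43 and 143 CPM against 8.19 and 5.52. The first SMP DKO library lay below both SMP WT libraries in each, and the second far above. The differences of −4.26 ± 1.06 and −3.81 ± 0.99 (SE; edgeR adjusted p = 0.02 and 0.023) became 0.32 ± 0.43 and 0.60 ± 0.39 (adjusted p = 0.72 and 0.4) without that library. Pdgfra, Clec3b, Gsn and Cd14 went from −2.90, −2.36, −1.79 and −3.44, all called, to −0.32, −0.14, −0.02 and −0.52, none called. These 6 genes also lost their call without either SMP WT library, with adjusted p of 0.064 to 0.12, and with same-numbered FAP and Misc libraries treated as pairs (adjusted p of 0.068 to 0.12). The fibro/adipogenic list of 14 had 1 higher and 4 lower, then 4 higher and none lower without the second SMP DKO library, 1 and 12 without the first, 1 and none without the first SMP WT library and 1 and 1 without the second, with 1 called in all under that pairing. The immune and endothelial lists had 1 lower of 12 and none of 14, no call in either direction without the second SMP DKO library, and 3 of 15 and 6 of 14 lower without the first.

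In the genes of energy metabolism and protein folding that passed the test with all libraries, the DKO effect was lower in stroma than in SMP. Of 76 oxidative phosphorylation genes 15 were called lower and none higher, against 5.59% and 5.81% of all genes tested, with a median of −0.50, which came with a median DKO effect of 0.51 in SMP, 0.11 in Misc and −0.05 in FAP. The calls fell to 2 without the second SMP DKO library and to 2 without the first SMP WT library, although the median was −0.50 and −0.39 there, and 2 of 76 is near the 2.56% of all genes called lower without the second SMP DKO library. With same-numbered FAP and Misc libraries treated as pairs, 24 were called. That pairing also called more genes in all, 1945 of those tested against 1617 without it. Cox5a, a subunit of cytochrome oxidase, was 33.1 and 39.4 CPM in SMP DKO against 19.9 and 17.4, and 13.3 to 17.7 in the FAP and Misc DKO libraries (difference −0.91 ± 0.19, edgeR adjusted p = 0.0032). Of 17 glycolysis genes 8 were lower and none higher, with 1, 2 and 4 left without the second SMP DKO, the first SMP WT and the second SMP WT library. Of 20 genes of protein folding in the endoplasmic reticulum 5 were lower and none higher, with 3 left without the second SMP DKO library and 1 without the first SMP WT library, while 10 were called with that pairing. Trib3, a stress-induced pseudokinase, was 7.38 and 5.63 CPM in SMP DKO against 1.22 and 2.02 (difference −2.47 ± 0.47, adjusted p = 0.0012), and Pdia6, a disulfide isomerase, 245 and 234 against 115 and 131 (−0.85 ± 0.20, adjusted p = 0.0082). Pdia6 was not called without the first SMP WT library (−0.75, adjusted p = 0.069).

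Growth factor and guidance genes moved in both directions. Tgfb2 rose in SMP (140.2 and 159 against 62.0 and 64.2 CPM) and in Misc (93.8 to 134 against 69.8 to 80.8), with a difference of −0.91 ± 0.17 (SE; edgeR adjusted p = 9.5e-04), while its co-receptor Tgfbr3 fell in all 3 populations and most in SMP (151 and 166 against 376 and 368; difference 0.80 ± 0.15, adjusted p = 0.0014). Both were called again without the second SMP DKO library. Spry1, an inhibitor of FGF signalling kept on in quiescent progenitors, fell in SMP (138 and 145 against 289 and 295 CPM) and overlapped in FAP and Misc (difference 1.37 ± 0.23, adjusted p = 4.5e-04). Sfrp1, a Wnt antagonist, fell in FAP (54.4 to 76.1 against 94.3 to 118 CPM) and Misc (11.7 to 17.5 against 43.9 to 57.0) and did not pass in SMP (12.7 ± 3.81 against 10.3 ± 3.01 CPM, mean ± SD, n = 2), with a difference of −1.55 ± 0.26 (adjusted p = 4.4e-04). Of 23 Wnt ligands and antagonists 1 was higher and 5 were lower, against 5.81% and 5.59% of all genes tested, so that the higher call is near the share over all genes. The counts were 1 and 1 without the second SMP DKO library, 1 and 2 without the first SMP WT library and 1 and 1 without the second. Nrp1, a receptor for semaphorins and VEGF, rose in SMP (130.5 and 152 against 61.9 and 56.3 CPM; difference −1.15 ± 0.14, adjusted p = 1.2e-05). Sema3a, its ligand, fell in Misc (55.9 to 97.4 against 198 to 237 CPM), with a difference of −1.59 ± 0.33 (adjusted p = 0.0038).

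Proteins that anchor the contractile apparatus were mixed. Dmd, dystrophin, fell in SMP (156 and 117 against 250.3 and 273 CPM) and overlapped in FAP and Misc (difference 0.99 ± 0.18, edgeR adjusted p = 0.001, and 0.81 ± 0.20 without the second SMP DKO library). Utrn, utrophin, its relative, was lower in DKO in all 3 populations, with 229 and 256 CPM in SMP DKO against 326 and 363, and the difference was 0.14 ± 0.14 (adjusted p = 0.57). Vim, vimentin, rose in SMP (1693 and 2274 against 805 and 856 CPM) and in Misc (1988 to 2343 against 1268 to 1424), with a difference of −0.83 ± 0.16 (adjusted p = 0.0017). Des itself fell in all 3 populations by log2 −1.81, −1.25 and −1.45, with a difference of −0.08 ± 0.24 (adjusted p = 0.87). Syne1 gave 0.53 ± 0.20 (adjusted p = 0.086), and was called with same-numbered FAP and Misc libraries treated as pairs (0.53, adjusted p = 0.032). AI506816, an unnamed transcript, rose strongly in all 3 populations, from 0.167 to 0.608 CPM to 6.99 to 22.6 in FAP, from 0.227 to 1.18 to 10.7 to 22.6 in Misc and from 1.31 and 1.46 to 60.3 and 73.7 in SMP. Its difference of −0.64 ± 0.71 (adjusted p = 0.61) did not pass the test, and the width of that error allows sizeable differences either way.

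**Figure D5:**
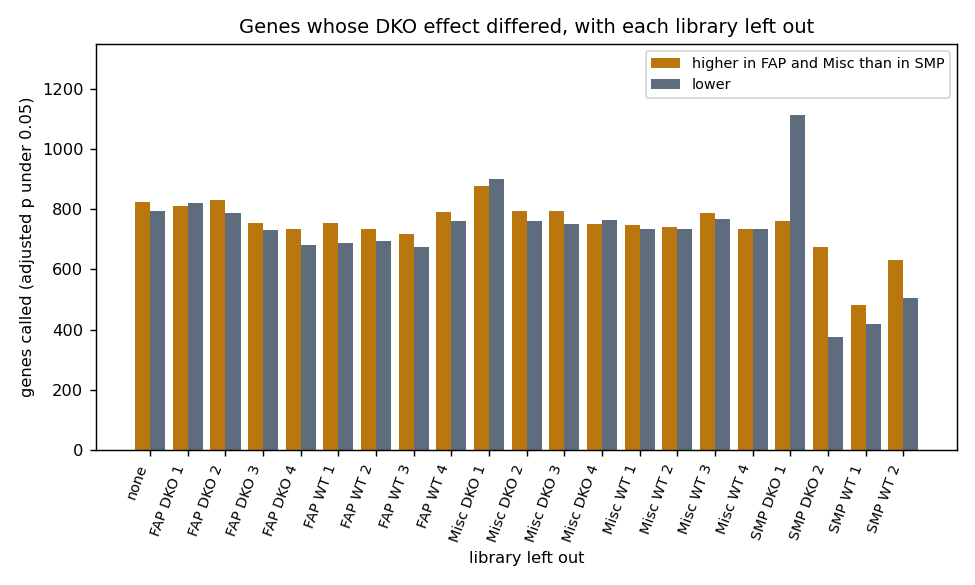
Number of genes called higher and lower (adjusted p under 0.05) with no library and with each of the 20 libraries left out in turn. Leaving out FAP or Misc libraries left 717 to 878 higher and 676 to 900 lower calls, whereas leaving out SMP libraries gave 480 to 762 higher and 374 to 1113 lower calls.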

How the data were processed

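RNA from 3 sorted mouse muscle cell populations was sequenced in 20 libraries. The authors deposited 1 table of whole-number exon counts per gene; per the submitters' processing notes the genome build was mm10 and DESeq2 was used, and no source used here names the aligner or counter. Symbols of 52 rows were restored from the identifiers in the RefSeq table, which matched 24312 of 24393 genes. Total counts per library ranged from 5.83 to 17.73 M.

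Counts were fitted with edgeR 4.0.16 (R 4.3.3): TMM scaling, filterByExpr by group (minimum count 10, total 15), a robust quasi-likelihood fit of 6 groups taken from the titles, and Benjamini-Hochberg adjustment over all genes tested, with a threshold of 0.05. SE values were derived from the F statistic. CPM are scaled by TMM. No value was imputed. The contrast, members and gene lists were chosen with earlier results of these data known. Named genes were the 15 with the largest difference each way called in both analyses (mean CPM of at least 5, no predicted genes), up to 8 each way with opposite called effects in the populations, up to 4 called members of each list, and a fixed set kept whatever its result; not all are printed. Bgn, Dcn, Fmod, Kera, Lum and the other members given without values were named to account for counts.

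Counts were simulated at these depths, with each gene and library drawn independently. They held no library with shifted cell types and no pairing of FAP and Misc, so error rates in the real counts can differ. In these simulated counts the test recovered 46% of 100 genes changed 2-fold in SMP alone and 73% of 100 changed 4-fold. It called 9 unchanged genes among 13977 tested. Without the second SMP DKO library it recovered 30% and 65%, and called 3 among 14102. Alternatives were a Wald test in DESeq2 1.42.0, DESeq2 size factors within edgeR, other filters, no robust option, thinned counts, a tested fold of 1.5, replicate blocks and each library left out. A block over FAP and Misc alone, and the analysis without the second SMP DKO library over the same 14179 genes, were added after the data had been seen.

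Whether replicate numbers pair libraries was checked by the correlation, over genes, of deviations from each group's mean. It was 0.18 to 0.34 between same-numbered FAP and Misc libraries, in all 8 pairs, so these are taken as paired from the data and not from the labels, and values with that block are given where they changed a call or moved a count by over 1.5 times. SMP numbers did not pair with either at above 0.06.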

Additional observations from a re-analysis of the deposited data

Results flagged for a closer look

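The DKO effect differed by test between FAP and Misc for 396 genes and between the stromal mean and SMP for 1617 genes. Among the genes named, the log2 DKO effect was larger in Misc than in FAP for Mgam (FAP minus Misc −1.93), Serinc2 (−3.00), Postn (−1.76), Tnfaip2 (−0.94), Aspn (−2.37), Fn1 (−1.16), Hey1 (−0.84), Heyl (−0.87), Jag1 (−1.06), Vim (−0.57), Frzb (−3.45), Tgfb2 (−0.59) and Nrp1 (−0.51). It was larger in FAP for Ddah1 (2.71), Ptx4 (1.04), Kif1a (1.28) and Thbs4 (2.29). Sfrp1 (1.18) fell less in FAP than in Misc. For these genes the mean of FAP and Misc joins unequal effects.

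In 16 of 368 groups of 4 libraries looked at, 1 library lay far from the other 3, where chance alone flags about 1 group in 20. In FAP WT, the first library held F2rl1 at 2.51 CPM (others 1.42 to 1.52), G6pdx at 47.4 (43.7 to 44.2) and Fbn2 at 3.06 (4.95 to 5.18), the second Ntn1 at 346 (404 to 411), and the fourth Timp3 at 1127 (1041 to 1049). In FAP DKO, Myh4 was 2.52 CPM in the first library (others 1.57 to 1.65), Scx 4.70 in the second (1.77 to 2.06), Fn1 5619 in the third (6823 to 6918) and Tgfb2 135 in the fourth (104 to 108). In Misc WT, the first library held Kif1a at 11.9 CPM (6.37 to 6.94) and Utrn at 217 (193 to 195), the third Adamtsl4 at 46.8 (35.2 to 35.7), and the fourth Col1a1 at 46014 (35085 to 35849) and Col3a1 at 6383 (7910.4 to 8173). In Misc DKO, Creb3l1 was 133 CPM in the second library (151 to 154) and Thbs4 39112 in the fourth (28368 to 29579). The SMP groups, with 2 libraries each, were not looked at in this way.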

How the results depend on the processing

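Requiring a fold of at least 1.5 in the test left 290 calls (145 higher and 145 lower, 288 of at least 2-fold), with 258 for FAP minus SMP, 350 for Misc minus SMP and 55 for FAP minus Misc. Requiring the call in both FAP minus SMP and Misc minus SMP left 733 (358 higher, 375 lower, 443 of at least 2-fold). Without the second SMP DKO library, over the same 14179 genes, 1063 were called, 683 higher and 380 lower. Leaving out each library gave 898 to 1875 calls (480 to 878 higher, 374 to 1113 lower, 579 to 1094 of at least 2-fold), 777 to 1783 for FAP minus SMP, 782 to 1583 for Misc minus SMP and 279 to 542 for FAP minus Misc. The lowest total came without the first SMP WT library and the highest without the first SMP DKO library. The replicate block by number gave 691 higher and 687 lower, the block by column letters 1046 and 920, with 737 for FAP minus Misc, and the block over FAP and Misc alone 995 and 950.

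Of 92 genes followed, all 92 kept direction and call with DESeq2 size factors, the DESeq2 Wald test and no robust option. Requiring a fold of at least 1.5 ended 26 calls. Pairing FAP and Misc libraries by number kept 85, ended 6 calls (C3, Col14a1, Pdgfra, Clec3b, Gsn and Cd14) and added Syne1. The replicate block by number over all groups kept 81 and ended 9 calls, those 6 with Pcolce2, Tnmd and Col4a5 (adjusted p = 0.051, 0.16 and 0.059). The block by letters kept 83 and ended 7 calls, those 6 with Myh4 (adjusted p = 0.079). Directions turned for C3 and Col14a1 (0.32 and 0.60 without the second SMP DKO library, −5.22 and −4.77 without the first), and for genes that did not pass: Des (0.03 with the block by number, 0.01 by letters, 0.00 with thinned counts, −0.29 to 0.19 over libraries left out), Col1a1 (0.08 with the block by number, −0.50 to 0.68 over libraries left out) and Col1a2 (−0.48 to 0.87, the latter called). The cause was not tested. SMP had 2 libraries a group, and its DKO libraries (6.12 and 5.83 M counts) were the shallowest of the series, which limits what these counts can show.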
